A study of Mus musculus with 4 samples.

Results

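The genes described here encode the MHC class II chains H2-Aa, H2-Ab1 and H2-Eb1, the invariant chain Cd74 and the transactivator Ciita, 5 of the 19938 genes that the arrays measured with a probe set of a single gene name. They were chosen by symbol, with 1 probe set for each, and every one of the 5 was found and had only that probe set. Transcripts were measured on Affymetrix whole-transcript arrays in C57BL/6 mouse cells of 3 kinds, 4 arrays in all. Tcf1 cells (2 arrays, labelled as biological replicates) were Thy1+CD25+ cells from LMPPs transduced with the Tcf1-VEX retrovirus and kept until day 10 on OP9 stroma, a line of bone marrow stromal cells. Control cells (1 array) were Thy1+CD25+ cells of the same day, from LMPPs given the VEX vector without Tcf1 and grown on OP9 that presents the Notch ligand DL4. LMPPs (1 array), pooled and labelled as wild type, were Lineage marker-Sca+kit+Flt3high bone marrow progenitors taken after 48 hours in the stimulation medium used for transduction. Both cultures received IL7 at 1 ng/ml and Flt3 ligand at 5 ng/ml, and both sorts took CD45.2+ cells without Mac1 and Gr1. Tcf1 and control cells thus differed in vector and in stroma, whose effects cannot be told apart, and the LMPPs differed from both in culture time, stroma and sort as well.

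MHC class II molecules present peptides from the endocytic route to CD4+ T cells, and are pairs of an alpha and a beta chain. H2-Aa and H2-Ab1 encode the alpha and the beta chain of the A molecule, and H2-Eb1 encodes the beta chain of the E molecule, whose alpha chain gene H2-Ea is defective in C57BL/6 mice. Cd74, the invariant chain, holds new class II pairs together, fills their groove and guides them to endosomes. Ciita does not bind DNA itself: it is recruited by the RFX complex, CREB and NF-Y on the X and Y boxes of class II promoters, Cd74's included, and class II transcription depends on it. In mice, dendritic cells, B cells and activated macrophages make class II at a high level, while T cells make little or none.

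The promoter letters of the members are shown because the X and Y boxes are the elements that these genes are known to share. RefSeq's promoter table (GRCm38.p6) held 2 of the 5 members, H2-Aa and H2-Eb1. The 250 bases before each start site are given 5′ to 3′ on the gene's strand, at chr17:34287824-34288073 on the minus strand for H2-Aa and at chr17:34305617-34305866 on the plus strand for H2-Eb1. Capitals mark GCAAC, a core of the X box stretch that RFX binds, TGACGTCA, the CRE letters to which CREB binds next to it, and CTGATTGG, the Y box with the inverted CCAAT that NF-Y binds.
H2-Aa: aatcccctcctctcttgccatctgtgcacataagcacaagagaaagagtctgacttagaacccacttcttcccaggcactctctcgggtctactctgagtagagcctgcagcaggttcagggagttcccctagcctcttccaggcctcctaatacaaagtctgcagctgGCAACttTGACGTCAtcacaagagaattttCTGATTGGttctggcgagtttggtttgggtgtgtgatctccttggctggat
H2-Eb1: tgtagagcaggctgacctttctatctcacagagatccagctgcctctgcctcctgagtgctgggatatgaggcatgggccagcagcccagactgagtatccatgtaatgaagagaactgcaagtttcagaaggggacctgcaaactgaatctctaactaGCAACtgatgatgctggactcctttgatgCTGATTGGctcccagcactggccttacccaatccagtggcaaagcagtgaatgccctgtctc
In H2-Aa, GCAAC began 81 bases, TGACGTCA 74 bases and CTGATTGG 51 bases before the start site. In H2-Eb1, GCAAC began 91 bases and CTGATTGG 62 bases before it, and TGACGTCA was not among these letters. From start to start, GCAAC and CTGATTGG lay 30 bases apart in H2-Aa and 29 bases apart in H2-Eb1. The motifs were chosen after these sequences were seen and were searched on both strands of the table's 32851 promoters of 300 bases, where they did not overlap each other in either member. GCAAC was found in 35.2% of promoters, TGACGTCA in 1.79% and CTGATTGG in 4.1%. GCAAC followed on the same strand by CTGATTGG, 15 to 50 bases from start to start, was found in 52 promoters (0.158%) of 50 genes, 4 of them the class II genes H2-Aa, H2-Eb1, H2-Eb2 and H2-Oa.

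H2-Aa had log2 signals of 9.24 and 10.61 in the Tcf1 arrays, 5.86 in the control array and 10.18 in the LMPP array. H2-Ab1, its partner chain, had 9.09 and 10.40 in the Tcf1 arrays, 6.20 in the control array and 10.31 in the LMPP array. For both chains of the A molecule the control array was the lowest by a wide gap, and the LMPP array lay between the Tcf1 replicates. H2-Eb1 had 9.31 and 10.17 in the Tcf1 arrays, 7.76 in the control array and 9.70 in the LMPP array. Cd74 had 10.18 and 11.32 in the Tcf1 arrays, 6.22 in the control array and 11.21 in the LMPP array. These 2 genes kept the same order, with Tcf1 replicate 2 highest, then the LMPP array, then Tcf1 replicate 1, and the control array last. Ciita had 7.24 and 7.63 in the Tcf1 arrays, 6.83 in the control array and 7.71 in the LMPP array. Its arrays spanned a much narrower range, again with the control array lowest, but here the LMPP array was highest. A probe set's brightness also depends on its probes, so these levels give an order of arrays for each gene and not of genes.

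**Figure D1:**
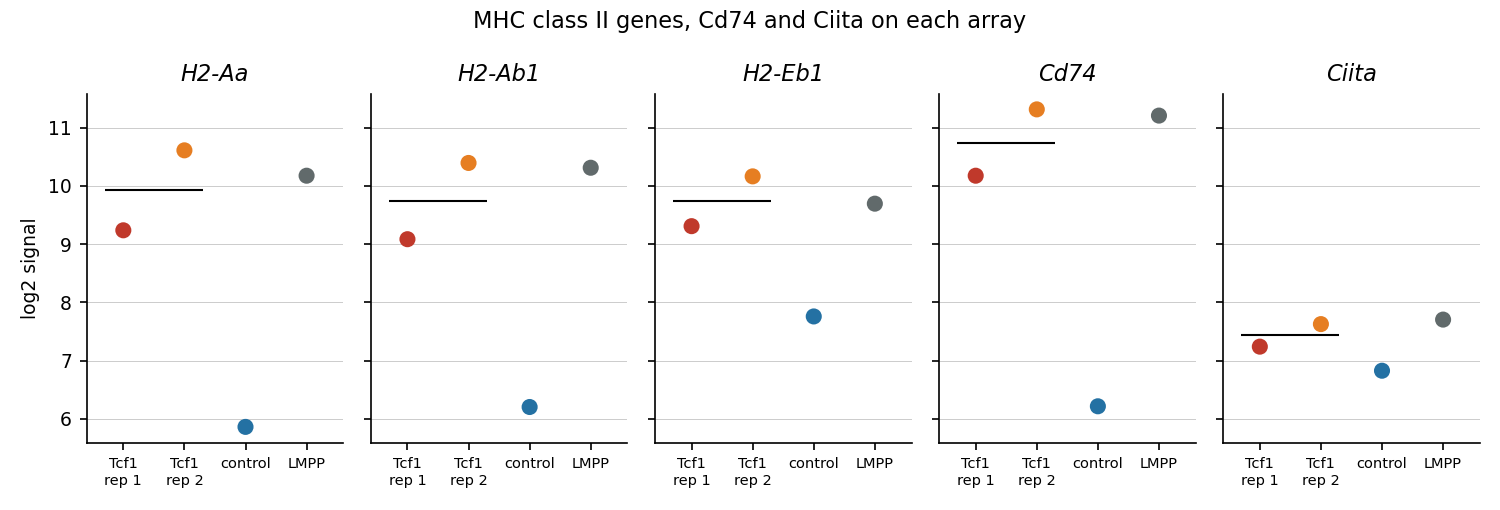
Log2 signal (vertical axis) of each member on each array, with Tcf1 replicates 1 and 2, the control array and the LMPP array from left to right in every panel; the bar is the mean of the 2 Tcf1 arrays. In all 5 panels the control point is the lowest, at 5.86 for H2-Aa and 6.83 for Ciita, and replicate 2 lies above replicate 1.

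Tcf1 cells were set against control cells to compare Thy1+CD25+ cells that arose with added Tcf1 and without DL4 with those that arose under DL4. All 3 class II chains and Cd74 were higher in Tcf1 cells, 4 of 5 members, where 1.9% of all genes were higher and 2.49% lower by the same test (limma, Benjamini-Hochberg adjusted p under 0.05 over all genes). Cd74 averaged 10.75 ± 0.81 in Tcf1 cells (SD, n = 2) and was 23.1-fold higher than in control cells, a log2 difference of 4.53 (SE 0.41, 95% interval 3.55 to 5.51, adjusted p = 0.00206, limma). Folds here are ratios of signal: on the control array Cd74, H2-Aa and H2-Ab1 lay at the 26.6, 20.5 and 26.4 percentiles of all genes, where signal was not shown to be above background, so the exact size of these folds is uncertain. H2-Aa averaged 9.93 ± 0.97 (SD, n = 2) and was 16.7-fold higher, by 4.06 on the log2 scale (SE 0.48, 95% interval 2.91 to 5.21, adjusted p = 0.00587, limma). H2-Ab1 averaged 9.74 ± 0.93 (SD, n = 2) and was 11.6-fold higher, by 3.54 (SE 0.46, 95% interval 2.43 to 4.64, adjusted p = 0.00854, limma). The alpha and the beta chain of the A molecule thus both stood more than 2-fold above the control array on either Tcf1 array. H2-Eb1 averaged 9.74 ± 0.60 (SD, n = 2) and was 3.94-fold higher, by 1.98 (SE 0.33, 95% interval 1.20 to 2.75, adjusted p = 0.0202, limma).

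Ciita, the transactivator of the other members, averaged 7.43 ± 0.27 in Tcf1 cells (SD, n = 2), 0.61 above the control array on the log2 scale (SE 0.21, 95% interval 0.12 to 1.10), and did not pass over all genes (adjusted p = 0.218, limma). Both Tcf1 arrays read above the control array, by 0.41 and 0.80. Ciita is transcribed from separate promoters in dendritic cells, in B cells and after interferon gamma, and its 1 probe set does not tell their transcripts apart. Each Tcf1 array on its own left the same 4 genes at least 2-fold above the control array. The control array and the LMPP array had no replicate and were taken to vary as the Tcf1 pair did. When all 35399 probe sets were tested together, no gene passed in either comparison, with 3702 probe sets against control cells and 3317 against LMPPs at an unadjusted p under 0.05, and the 4 genes had adjusted p from 0.199 for Cd74 to 0.312 for H2-Eb1 (limma).

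**Figure D2:**
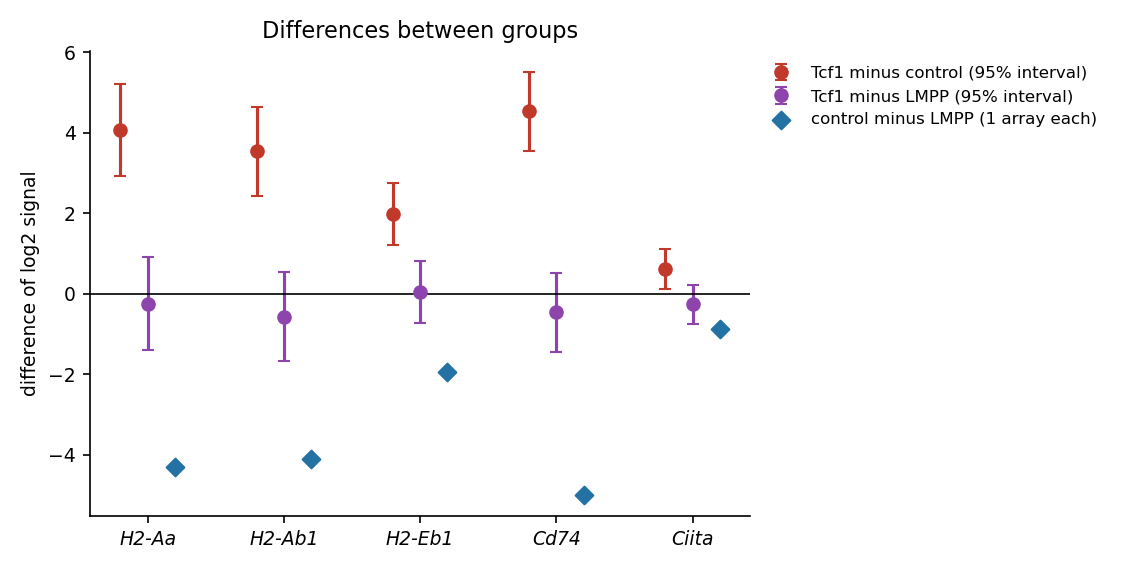
Differences of log2 signal (vertical axis) for each member, with 95% intervals of the limma fit for Tcf1 minus control and Tcf1 minus LMPP, and single values without an interval for control minus LMPP. The intervals of Tcf1 minus control lie above 1 for H2-Aa, H2-Ab1, H2-Eb1 and Cd74, and those of Tcf1 minus LMPP span 0 for all 5 genes.

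Tcf1 cells were next set against the progenitors they came from. None of the 5 members passed in either direction, and none had an unadjusted p under 0.05 (limma), where 3.06% of all genes passed, 1.75% higher and 1.31% lower. The log2 differences were -0.25 for H2-Aa, with a 95% interval of -1.40 to 0.90, and -0.57 for H2-Ab1, with an interval of -1.68 to 0.53. H2-Eb1 differed by 0.04, with an interval of -0.74 to 0.82, and Cd74 by -0.46, with an interval of -1.44 to 0.52. Ciita differed by -0.27, with an interval of -0.76 to 0.22. These intervals are wide, and for H2-Ab1 the lower end is a level 3.2-fold below the LMPP array, so the data do not show that the levels were alike. The direction depended on the replicate: in replicate 1 all 5 members read below the LMPP array, Cd74 by -1.03 and H2-Ab1 by -1.23, and in replicate 2 only Ciita did, by -0.08, while the other 4 read above it by 0.08 to 0.47. The LMPP array lay between the replicates, with replicate 2 above it, for 4 of 5 members and for 17.6% of all genes.

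Control cells against LMPPs, 1 array against 1, have no test and share an array with each of the comparisons above, so their values stand beside those without adding evidence. Of the 5 members, 4 were at least 2-fold lower in control cells, as were 2.36% of all genes. Cd74 had the largest of these differences, at -4.99, followed by H2-Aa at -4.31, H2-Ab1 at -4.11 and H2-Eb1 at -1.94, all on the log2 scale. Ciita differed by -0.88, short of 2-fold. On the control array H2-Aa lay below the 25th percentile of all genes, which was 6.12, and no detection calls were at hand, so whether class II signal remained there above background was not tested. In bulk RNA, fewer cells with class II transcripts and less of the transcript per cell cannot be told apart.

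The 2 Tcf1 replicates differed from each other in these genes more than in most. Of the 5 members, 3 (H2-Aa, H2-Ab1 and Cd74) were at least 2-fold higher in replicate 2 than in replicate 1, as were 0.181% of all genes. H2-Aa was higher by 1.37 on the log2 scale, H2-Ab1 by 1.31, Cd74 by 1.14, H2-Eb1 by 0.86 and Ciita by 0.39. By this difference H2-Aa ranked 5 and H2-Ab1 ranked 10 among the 19938 genes, while Cd74 ranked 20, H2-Eb1 66 and Ciita 1340. Over all genes the difference had a median of 0.08 and an SD of 0.24. The members were chosen with their replicate difference known, so the count and the ranks describe it without adding evidence. The cells of both replicates carry the same labels, and this spread of a single pair has no test of its own. The standard errors of the members in the fit, 0.48 for H2-Aa and 0.21 for Ciita, rest on this pair with 1 of the fit's 6.78 degrees of freedom, and for the others on the spread over all genes.

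**Figure D3:**
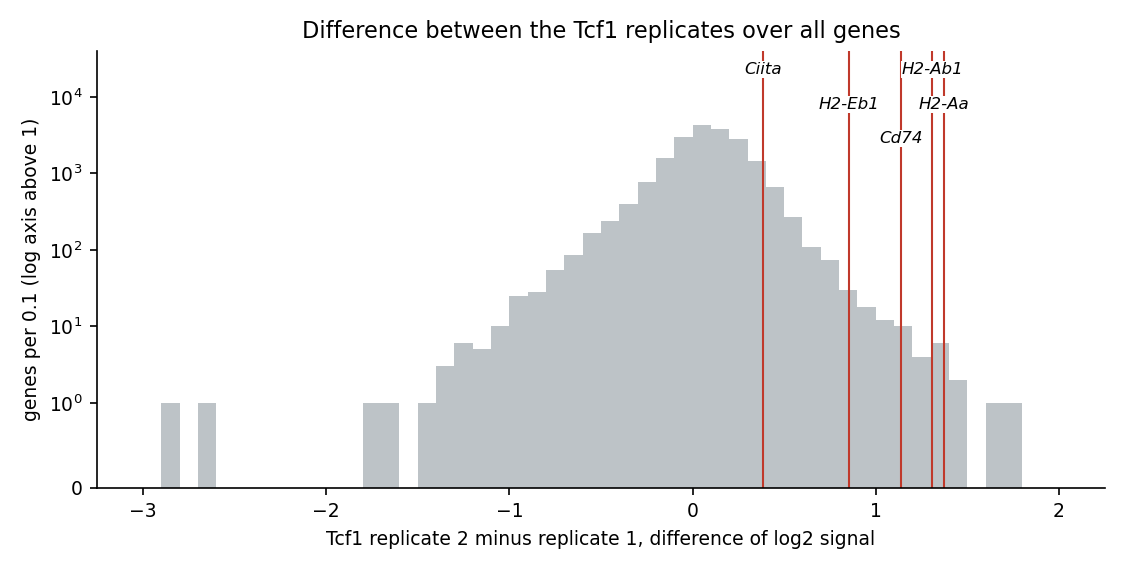
Number of genes (vertical axis, logarithmic above 1) by the difference of log2 signal between Tcf1 replicate 2 and replicate 1 (horizontal axis, in steps of 0.1), with the members marked by red lines. H2-Aa at 1.37, H2-Ab1 at 1.31 and Cd74 at 1.14 lie in the upper tail, and Ciita at 0.39 lies closer to the bulk of genes.

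Some genes of the machinery that loads class II molecules were higher in Tcf1 cells too. Of 11 measured accessory genes, 3 were higher in Tcf1 cells than in control cells, none was lower and 8 did not pass (limma, all genes). Over all genes, 1.9% were higher and 2.49% lower. The median difference of the 11 was 0.92, against 0.02 over all genes. Ctss, the cathepsin that trims the invariant chain, was higher by 2.37 (SE 0.19, adjusted p = 0.00122, limma), with 9.97 and 10.28 in the Tcf1 arrays, 7.75 in the control array and 9.11 in the LMPP array. Lgmn, an endosomal asparaginyl protease, was higher by 1.64, and H2-DMa, a chain of the peptide exchange factor, by 0.93 at the edge of the test (adjusted p = 0.0498, limma). Ctsl, another cathepsin, differed by 0.92, Ifi30, a thiol reductase of endosomes, by 0.80 and Cd83, a surface protein that stabilises class II, by 1.36, without passing. Cd83 and Ctsl each passed under 4 of the alternative settings and Ifi30 under 2. Against LMPPs, where 1.75% of all genes were higher and 1.31% lower, Ctss (1.02) and Ctsl (1.20) were higher and the other 9 did not pass. The largest negative differences among these were those of Ifi30 (-1.13, adjusted p = 0.0578) and H2-Ob (-0.98, adjusted p = 0.0502, limma), which passed as lower under 4 and 5 of the alternative settings.

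Among the class II genes outside the members, H2-DMa had 11.02 and 11.35 in the Tcf1 arrays, 10.25 in the control array and 11.08 in the LMPP array, the same order of arrays as H2-Aa. H2-Oa, a chain of the molecule that restrains peptide exchange, had 8.21 and 8.71 in the Tcf1 arrays, 9.20 in the control array and 7.91 in the LMPP array, so that the control array was the highest here; the difference of -0.74 between Tcf1 and control cells did not pass (adjusted p = 0.174, limma) except under 2 of the alternative settings. H2-Ob, its partner, had 9.17 and 9.50 in the Tcf1 arrays, 9.30 in the control array and 10.32 in the LMPP array. H2-Eb2, a relative of H2-Eb1 with which probes could share signal, differed by 1.12 between Tcf1 and control cells without passing (adjusted p = 0.123, limma), and passed under 3 of the alternative settings. H2-Oa and H2-Eb2 both hold the motif pair shown above for H2-Aa and H2-Eb1. H2-Ea, the alpha chain that C57BL/6 mice do not make, read 5.57 and 5.45 in the Tcf1 arrays, 5.48 in the control array and 5.45 in the LMPP array, a range of the arrays far smaller than for any member.

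Genes for the factors on class II promoters did not pass in either comparison. Of 7 measured, none passed between Tcf1 and control cells (limma), with no unadjusted p under 0.05 and differences from -0.43 for Nfyb to 0.11 for Nfya, both subunits of NF-Y. Against LMPPs none passed either, and 1 was lower at an unadjusted p under 0.05, as were 1838 of all 19938 genes (limma). Rfx5, the DNA-binding subunit of RFX, had 8.55 and 8.67 in the Tcf1 arrays, 8.72 in the control array and 8.58 in the LMPP array.

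Of 10 measured genes that lead to Ciita transcription in other cells, 2 were higher in Tcf1 cells than in control cells and 1 was lower. The other 7 did not pass, and the median of the 10 was 0.03. Over all genes, 1.9% were higher and 2.49% lower. Spi1, the myeloid and B lineage factor PU.1, which acts on the Ciita promoter of B cells and dendritic cells, was higher by 2.01 (SE 0.17, adjusted p = 0.00134, limma). Its signals were 11.48 and 11.61 in the Tcf1 arrays, 9.54 in the control array and 11.74 in the LMPP array. As for the class II chains, the control array was the lowest, while the Tcf1 replicates differed by 0.13. Ifngr2, a chain of the interferon gamma receptor, was higher by 0.99, and Irf1, an interferon-induced factor of the Ciita promoter, was lower, at -1.12 (adjusted p = 0.0425, limma), while its dimmer second probe set read -0.40. Averaged over both probe sets, Irf1 differed by -0.76 and no longer passed (adjusted p = 0.0537, limma). Irf8, a factor of dendritic and myeloid lineages, had 9.63 and 9.69 in the Tcf1 arrays, 9.11 in the control array and 11.82 in the LMPP array. It was lower in Tcf1 cells than in LMPPs, at -2.16 (adjusted p = 0.00133, limma), and Ifngr1 was higher by 0.88, with the other 8 not passing. Against LMPPs 1.75% of all genes were higher and 1.31% lower. Irf4 had 6.46 and 7.74 in the Tcf1 arrays, 6.11 in the control array and 7.07 in the LMPP array, the same order of arrays as H2-Aa, and did not pass (adjusted p = 0.413 against control cells, limma).

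MHC class I molecules, which nearly all cells carry, present peptides from the cytosol. Of 11 measured genes of this route, none passed between Tcf1 and control cells (limma), with 3 lower and none higher at an unadjusted p under 0.05, a median of -0.0016 and differences from -0.54 for Tap2, a peptide transporter chain, to 0.29 for Psmb9, an immunoproteasome subunit. At that unadjusted p, 1668 of all 19938 genes were lower and 1141 higher (limma). B2m, the light chain of class I, had 13.44 and 13.28 in the Tcf1 arrays, 13.36 in the control array and 13.12 in the LMPP array. Nlrc5, the class I counterpart of Ciita, differed by 0.18 on the brightest of its 19 probe sets, the highest difference among them. The lowest of the 19 was -0.30, and their mean differed by -0.077. None of the 11 passed against LMPPs, with 3 higher at an unadjusted p under 0.05, as were 1062 of all 19938 genes (limma). Between the Tcf1 replicates, 4 of the 11 read higher in replicate 2, as did 13530 of all 19938 genes. The median difference of the 11 was -0.05, against 0.08 over all genes.

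**Figure D4:**
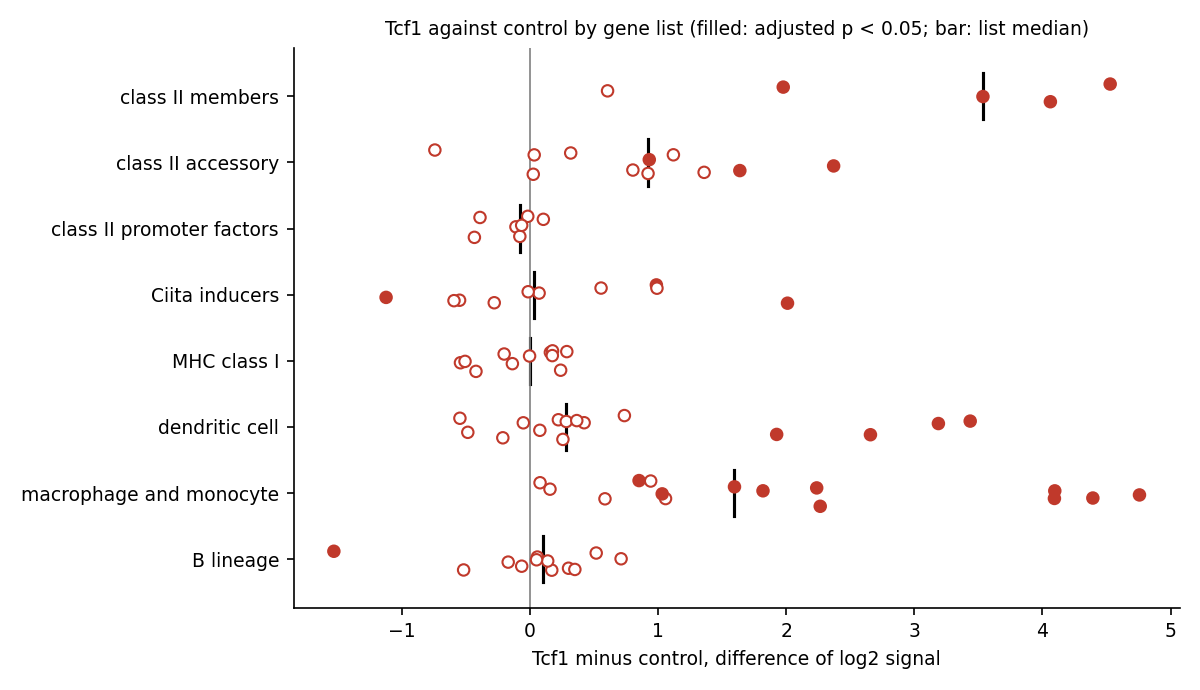
Difference of log2 signal between Tcf1 and control cells (horizontal axis) for every measured gene of 8 lists; filled points passed limma's test over all genes, open points did not, and the bar is the list median. The members reach 4.53, accessory genes reach 2.37, and the 7 class II promoter factors and 11 MHC class I genes hold no filled point.

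Some markers of cell types that make class II were higher in Tcf1 cells than in control cells, as the class II chains and Cd74 were. Of 15 measured macrophage and monocyte markers, 10 were higher in Tcf1 cells than in control cells and none was lower, and the sum of their log2 signals was 131.1 and 134.6 in the Tcf1 arrays, 102.9 in the control array and 116.2 in the LMPP array. Adgre1, a macrophage surface receptor, was higher by 4.76, the lysozyme gene Lyz2 by 4.09, Cybb, an oxidase subunit, by 4.39 and Mgl2, a lectin of macrophages and dendritic cells, by 4.10. Among the 5 that did not pass, differences ran from 0.08 for Cd163 to 1.06 for C1qc (adjusted p = 0.0625, limma). Of the 15, 6 were also higher in Tcf1 cells than in LMPPs, with Adgre1 higher by 4.37. The other 9 did not pass, with differences from -0.16 for Cd163 to 1.12 for C1qc. Over all genes, 1.9% were higher in Tcf1 cells than in control cells and 1.75% higher than in LMPPs. Between the replicates none of the 15 was 2-fold apart, where only 65 of all 19938 genes were, in either direction. Their median difference was 0.33, against 0.08 over all genes. Of the 15, 12 read higher in replicate 2, as did 13530 of all 19938 genes.

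Of 15 dendritic cell markers, 4 were higher in Tcf1 cells than in control cells and none was lower. Over all genes, 1.9% were higher and 2.49% lower. The log2 signals of the 15 summed to 117.5 and 121.3 in the Tcf1 arrays, 107.1 in the control array and 114.7 in the LMPP array. Those higher were the costimulatory ligands Cd80 (3.44) and Cd86 (1.93), the signal receptor Sirpa (3.19) and the lectin Clec10a (2.66). Cd80's dimmer second probe set read 2.08, and Cd80 was the only one of the 15 that was 2-fold apart between the replicates, higher in replicate 2. Clec10a and Mgl2 are close relatives whose signals could be shared. Among the 11 that did not pass, differences ran from -0.55 for Tcf4 to 0.74 for Siglech (adjusted p = 0.0662, limma). Itgax differed by 0.22, Zbtb46 by 0.26, Xcr1 by 0.08 and Clec9a by -0.21. Against LMPPs, where 1.75% of all genes were higher and 1.31% lower, Clec10a (1.67) and Sirpa (0.89) were higher and Tcf4 (-0.99) was lower. The other 12 did not pass, from -0.80 for Itgax (adjusted p = 0.0573, limma) to 1.79 for Cd80 (adjusted p = 0.0664, limma). Of 12 B lineage markers, none was higher in Tcf1 cells than in control cells and 1, Cd79b (-1.53), was lower. At an unadjusted p under 0.05, 2 were higher and 2 lower, as were 1141 and 1668 of all 19938 genes (limma). Against LMPPs 1 was higher, Cd72 (0.96), and 1 lower, Cd79b (-2.39). Their sums were 80.4 and 80.9 in the Tcf1 arrays, 80.6 in the control array and 82.4 in the LMPP array. Ms4a1, which encodes CD20, read between 4.95 and 5.17 on the 4 arrays, and Cd79a between 5.41 and 5.55. No signal on these arrays is 0, and the part of other cells in the class II result was not tested.

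The sort markers Thy1 and Il2ra, which encodes CD25, read 12.38 or more on both Tcf1 arrays and on the control array, against 8.13 for Thy1 and 6.88 for Il2ra in the LMPP array. Of 10 T lineage genes, these among them, 7 were higher and 1 lower in Tcf1 cells than in LMPPs, and 7 were lower and none higher than in control cells. Over all genes, 1.75% were higher and 1.31% lower than in LMPPs, and 2.49% lower and 1.9% higher than in control cells. Of 10 stromal genes, Bgn (1.52) was higher and Pdgfrb (-1.63) lower than in control cells, and Timp3 (3.75) and Bgn (2.25) were higher than in LMPPs. Bgn was also higher by 0.72 in Tcf1 replicate 2 than in replicate 1. The median replicate difference of the 10 stromal genes was 0.11, against 0.08 over all genes. Of these 10, 7 read higher in replicate 2, as did 13530 of all 19938 genes. Col1a1 (-0.09), Col1a2 (-0.05) and Pdgfra (-0.09) read lower. Both against control cells and against LMPPs, 8 of the 10 did not pass (limma). The part of stromal cells in the class II result was not tested. Cd3e, a chain of the T cell receptor complex, was low in Tcf1 cells, at 7.45 and 7.42. The control array had 10.41 and the LMPP array 7.32. Of the other listed chains of that complex, Cd3d (0.16) did not pass against LMPPs, while Cd3g (0.94) and Cd247 (1.66) were higher (limma). All of these chains were lower in Tcf1 cells than in control cells, from -1.50 for Cd247 to -6.44 for Cd3g. Flt3, the receptor by which the LMPPs were sorted, had 10.97 and 11.03 in the Tcf1 arrays, 6.75 in the control array and 11.91 in the LMPP array, so that its control array was low as it was for the members.

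The genes with the pattern most like that of the members were found by the distance between profiles over the 4 arrays, each profile centred on its own mean and set against the mean profile of the 5 members. The 10 nearest of all other genes were Vdr, Prtn3, Adgrg7, Csf2rb, B4galt6, Anxa3, Nek6, Cfp, Cyria and Ctnnd1, at distances from 0.779 to 0.887. Among the members, H2-Ab1 lay at 0.665, H2-Eb1 at 0.983, H2-Aa at 0.989, Cd74 at 1.43 and Ciita at 2.08. Large and small changes of the members thus both left their mean. Each member is part of that mean, which draws it nearer, so these distances cannot be set against those of the 10. Vdr, the vitamin D receptor, had 8.58 and 9.19 in the Tcf1 arrays, 6.57 in the control array and 8.80 in the LMPP array. Its arrays had the same order as those of H2-Aa. Prtn3, a neutrophil granule protease, had 10.91 and 10.81 in the Tcf1 arrays, 8.03 in the control array and 11.36 in the LMPP array. Csf2rb, the shared chain of the receptors for GM-CSF, IL-3 and IL-5, which has a close relative in Csf2rb2, had 11.03 and 11.25 in the Tcf1 arrays, 8.18 in the control array and 10.75 in the LMPP array. The low control array was what these 10 had in common with the members, with Tcf1 minus control from 1.92 to 2.96, a range that the choice by distance fixes. The difference between replicate 2 and replicate 1 was above 0.5 in 3 of the 10, Vdr, Anxa3 and Cyria, and from -0.10 up to 0.22 in the other 7.

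**Figure D5:**
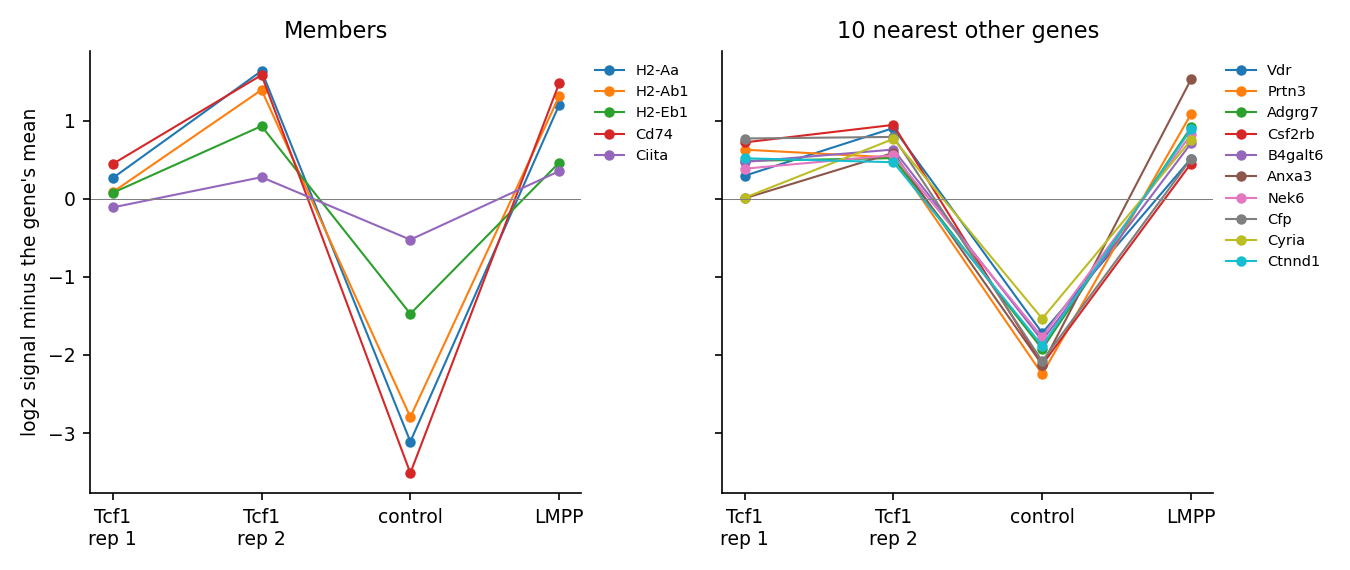
Log2 signal minus the gene's own mean (vertical axis) on Tcf1 replicates 1 and 2, the control array and the LMPP array, for the 5 members (left) and the 10 nearest other genes (right); lines join the arrays of a gene and have no other meaning. All genes dip in the control array, and the step between the Tcf1 replicates is steeper for H2-Aa, H2-Ab1, H2-Eb1 and Cd74 than for the 10 others.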

How the data were processed

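The authors deposited log2 signals per probe set, made with RMA and Partek 6.5 per the submitters' processing notes, which give no parameters. The log base was taken from RMA and the values' range, and the build of the array's probe annotation is not named there. Amplification used Ambion's WT Expression kit, per the labels' protocols. The table's 35399 probe sets divide into 21789 with 1 gene symbol, 1621 with more and 11989 without. The brightest probe set by mean was kept for each of 19938 genes, with no filter on dim genes. Groups were fitted over all 4 arrays with limma 3.58.1 in R 4.3.3 (empirical Bayes, Benjamini-Hochberg adjustment over all genes). Only the Tcf1 pair gave residual spread, with 1 degree of freedom, or 6.78 once the prior was added. Precision is limited by the number of arrays. The fit was tested on simulated data. Members, gene lists and tests were chosen with earlier results of these data known. Named genes were the members, the list genes past the test (at most 6 a list and comparison) or with a defining role, and the 10 nearest profiles; examples from the marker lists were chosen after their values were seen. Some of the listed genes are not analysed here. Alternatives were renewed quantile normalization, median centring, a filter at the 25th percentile, an intensity trend, the mean of a gene's probe sets, all probe sets, and either Tcf1 replicate left out.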

Additional observations from a re-analysis of the deposited data

How the results depend on the processing

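The 5 members kept their direction and their side of the test in both comparisons under renewed quantile normalization, median centring, the filter on dim genes, the intensity trend and the mean of all probe sets, with 4 members past the test against control cells and 0 against LMPPs each time. Testing all 35399 probe sets left 0 members and 0 genes past the test against control cells and 0 genes against LMPPs (limma), with 3702 and 3317 at an unadjusted p under 0.05; the cause was not tested. Over all genes, 610 passed against LMPPs and 874 against control cells. Against LMPPs this became 1456 after median centring, 1196 with the filter and 936 with the trend, and against control cells 1646 after median centring and 1437 with the filter. Higher calls were 57.2% of those against LMPPs and 41.7% after median centring. With 1 Tcf1 replicate the differences had no test. They then ran, against LMPPs, from -0.94 to 0.44 for H2-Aa, -1.23 to 0.08 for H2-Ab1, -0.39 to 0.47 for H2-Eb1, -1.03 to 0.11 for Cd74 and -0.46 to -0.08 for Ciita. Against control cells they ran from 3.38 to 4.75 for H2-Aa, 2.88 to 4.19 for H2-Ab1, 1.55 to 2.41 for H2-Eb1, 3.96 to 5.10 for Cd74 and 0.41 to 0.80 for Ciita. Among alternatives with a test, signs turned only for other named genes close to 0, none of which had passed: under renewed quantile normalization, against LMPPs H2-Ea (-0.0172), Ifngr2 (0.0170) and Irf4 (-0.0643), and against control cells H2-Ea (-0.0584) and Rfx5 (0.0109); under median centring, against LMPPs Rfx5 (-0.0116) and Irf4 (-0.0117), and against control cells H2-Ob (-0.00747) and H2-Ea (-0.0148); and with the mean of its probe sets Nlrc5 against control cells (-0.0774). Cd86 against control cells no longer passed after renewed quantile normalization (adjusted p = 0.0515, limma), nor did Irf1 with the mean of its probe sets (0.0537). Calls were gained against control cells by Cd83 (4 alternatives, adjusted p 0.00235 to 0.0403), Ctsl and Cd72 (4 each), H2-Eb2 and Il2ra (3 each), H2-Oa and Ifi30 (2 each) and Ifngr1 and Thy1 (1 each), and against LMPPs by H2-Ob (5, adjusted p 0.00575 to 0.0425), Ifi30 and Anxa3 (4 each), Cd83 and Cd80 (3 each) and B2m (1). No paired analysis was possible because only the Tcf1 arrays carry replicate numbers and the other groups have 1 array each.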

Other observations

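In Tcf1 replicate 2, 36 genes were at least 2-fold higher than in replicate 1 and 29 at least 2-fold lower. Of the marker lists, 1 of 15 dendritic cell markers and 0 of 15 macrophage and monocyte markers were 2-fold apart, as were 65 of all 19938 genes. The genes given here were picked from the 36 after their values were seen, so they describe no group, and none of these differences has a test. Irf4, a factor of activated lymphocytes and of one class of dendritic cells, had 7.74 in replicate 2 and 6.46 in replicate 1. Cd80, a costimulatory ligand, had 10.65 and 9.61, and Cd274, the inhibitory ligand PD-L1, had 9.61 and 8.48 in the same order of replicates. Fscn1, an actin bundler of mature dendritic cells, had 9.998 in replicate 2 and 8.95 in replicate 1. For Cd80, Cd274 and Fscn1 the control array was the lowest of the 4, at 6.69, 8.04 and 7.26, as it was for the class II chains. For the same 3 genes the LMPP array, at 8.33, 8.38 and 7.33, lay below both Tcf1 arrays, whereas it lay between them for H2-Aa, H2-Ab1, H2-Eb1 and Cd74. The 36 also held Glp1r, the receptor for the gut hormone GLP-1, with the largest difference in this direction of all genes (8.87 in replicate 2 and 7.11 in replicate 1) and 10.62 in the control array.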
